A study of Sus scrofa with 32 samples.

Results

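LEP, the gene of leptin, was 1 of the 31908 genes listed in the tables of fat and of liver counts, where it stands as ENSSSCG00000040464. It was chosen by name and not by its values, with earlier results of these data known. It was followed in 32 libraries, of which 16 came from fat and 16 from liver. The pigs were females of the breed Zlotnicka White (Złotnicka White) with a labelled age of 180 days, kept on 1 test station with common feed and housing and slaughtered near 100 kg. The 8 HFD pigs were chosen for high and the 8 LFD pigs for low fat content, so HFD stands for a body trait and not for a diet, and each group gave 8 fat and 8 liver libraries. The labels name neither the fat depot nor the pig behind a library, and they carry no treatment, allele or transgene.

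Leptin is a hormone that fat cells secrete into the blood, in amounts that follow the lipid they store. It acts on the receptor LEPR, which works through the kinase JAK2 and the transcription factor STAT3, and SOCS3 and the phosphatase PTPN1 damp that signal. In adipocytes the LEP promoter is a known target of C/EBP alpha, while the liver is known as a tissue that responds to leptin and not as one that makes it.

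LEP lies on the minus strand of pig chromosome 18, at chr18:20106867-20124071 in the RefSeq annotation of Sscrofa11.1, the build named in the submitters' processing notes. The annotation gives it 6 transcripts over 17205 bases, and 0 other annotated genes overlap it, which bears on libraries that do not mark strand. The first coding part, shown because it opens the coding sequence of the leptin precursor in the curated reference transcript, is given from 5′ to 3′ on the minus strand with the start codon in capitals. It was read from chr18:20112120-20112263. The counts below are sums per gene and do not tell the 6 transcripts apart, and 1 of these, chr18:20120964-20124071, does not reach this stretch.
First coding part of LEP: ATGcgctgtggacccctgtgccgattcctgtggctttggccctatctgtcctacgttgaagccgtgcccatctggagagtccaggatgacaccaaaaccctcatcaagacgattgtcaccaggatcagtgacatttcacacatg

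Each of the 6 transcripts has a start of its own, at positions 20113072, 20113089, 20123318, 20123405, 20123448 and 20124071, and the counts do not show which was used. The windows shown lie before the start at 20123318, and so downstream of the 3 starts at higher positions. That start is of a predicted transcript, while the curated one starts at 20113089. They are shown because CEBPA is among the genes compared with LEP below. Of 250 bases before the start at 20123318, 1 stretch reads TTGCGCAA, a palindrome of the C/EBP type, and it lies 70 bases before the start. A TATAA stretch lies 46 bases before it, and GGGCGG, of the Sp1 type, occurs 2 times when both strands are read, with the nearer one 114 bases before the start. The motifs do not overlap each other. Over 47445 promoter windows of the same length, 0.185% held TTGCGCAA, 16.1% held TATAA and 47.8% held GGGCGG. These are matches of letters and not observed binding. Capitals mark the motif, and the windows are chr18:20123370-20123399 and chr18:20123348-20123376.
C/EBP window of LEP: ctgccgggcagTTGCGCAAgttgcgctcgc
TATA window of LEP: cgctcgcgcgtcTATAAgaggggagggca

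Fat libraries held between 9409976 and 19484621 counts and liver libraries between 19837882 and 30457374. Library numbers run in sample order within each tissue and group. The same number in fat and liver need not mean the same pig. Library HFD 2 of fat stood apart. It had the fewest counts, and its 10 most counted genes took 80.9% of them, against 28.3% in the next HFD library. TMM, the scaling used to compare libraries, gave it a factor of 0.319, where the next lowest HFD factor was 0.927. A factor this low raises the scaled level of every gene in HFD 2 above its share of all counts. In fat LFD 4 the same share was 42.2%. Results in fat are therefore given with and without HFD 2 where it matters. The tissue labels went with the markers. Summed over 10 adipocyte markers, fat libraries held between 18391 and 26268 CPM, that is, TMM-scaled counts per 1000000, and liver libraries between 177 and 426, while the sum of 10 hepatocyte markers lay between 126996 and 181242 CPM in liver and between 160 and 1557 CPM in fat, with the highest value in HFD 2.

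LEP was abundant in fat and almost absent from liver. In the common scaling of all 32 libraries the lowest fat library had 20.2 CPM and the highest liver library 0.614 CPM, so the tissues did not overlap and the gap was 32.9-fold. The mean of the fat libraries was 2008 times the pooled level of the liver libraries, with a range of 1360 to 3103 from counting error in liver alone. The fitted log2 difference between fat and liver was 10.9 (SE 0.470, edgeR quasi-likelihood test, adjusted p = 3.18e-21), and a two-sided permutation test of the mean log2 level gave p = 1e-05, the smallest that 100000 permutations can give. Of 14324 genes tested, 79.4% passed this comparison, so a difference between the tissues was the rule, but LEP ranked 8 by the size of its log2 difference towards fat. Tissue cannot be told apart from the table and the sequencing runs, since each tissue has its own.

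Within fat, LEP was on average higher in HFD than in LFD pigs, with wide overlap. The HFD libraries, from low to high, had 99.3, 99.9, 244, 248, 276, 354, 361 and 378 CPM. The LFD libraries had 24.5, 41.1, 93.2, 100.0, 155, 158, 175 and 263 CPM. The 2 lowest HFD libraries, HFD 2 and HFD 7, fell among the LFD values, 4 HFD libraries lay above every LFD library, and 3 LFD libraries lay below every HFD library. The HFD mean was 257 ± 110 CPM (SD, n = 8) with a median of 262, and the LFD mean was 126 ± 77.6 CPM (SD, n = 8) with a median of 127. In bulk tissue, here and below, fewer cells of a type and less RNA per cell cannot be told apart from the level of 1 gene. The sum of the 10 adipocyte markers lay between 18729 and 24102 CPM in HFD and between 18391 and 26268 CPM in LFD libraries, so the groups overlapped in it. Of the 10 markers, 0 passed the comparison of HFD with LFD. As 0 of all 13082 genes tested passed it, that count says nothing of fat cell content.

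**Figure D1:**
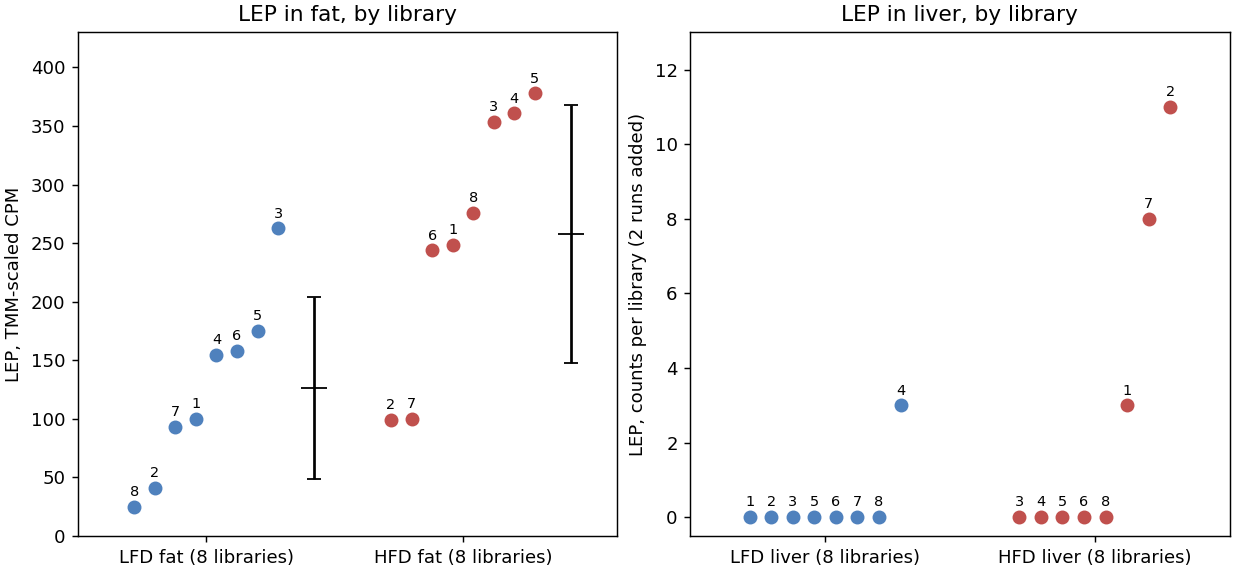
LEP by library; left, TMM-scaled CPM in fat with the mean and SD of each group as bars, and right, counts in liver, with the replicate number above each point. In fat the HFD libraries run from 99.3 to 378 CPM and the LFD libraries from 24.5 to 263 CPM, while 12 of 16 liver libraries have 0 counts.

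The fitted log2 fold change of LEP in fat, HFD minus LFD, was 1.03 (SE 0.405), a fold of 2.04 with a 95% interval of 1.13 to 3.68. The unadjusted p of edgeR was 0.0204 and an exact two-sided permutation test over 12870 assignments of the libraries gave p = 0.0294. Adjusted over the 13082 genes tested, p was 0.636, and LEP ranked 417 by its p. The comparison as a whole called 0 genes (0% of those tested) with edgeR, while 870 had an unadjusted p under 0.05 against 654 expected from that threshold. DESeq2 called 49 genes and limma-voom 1, and LEP was not among them, with adjusted p-values of 0.372 and 0.735. The unadjusted and the permutation p passed 0.05, and the p adjusted over all genes did not.

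Leaving out HFD 2 gave LEP a log2 fold change of 1.15 (SE 0.395) with an adjusted p of 0.436. Over the 16 fits that each left out a library, the log2 fold change lay between 0.88 and 1.27 and the adjusted p between 0.436 and 0.946. It was lowest without LFD 8, the library with the least LEP, and highest without LFD 3, the LFD library with the most. The value of HFD 2 depended on scaling: its 298 LEP counts are 31.7 per 1000000 of all its counts but 99.3 TMM-scaled CPM.

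**Figure D2:**
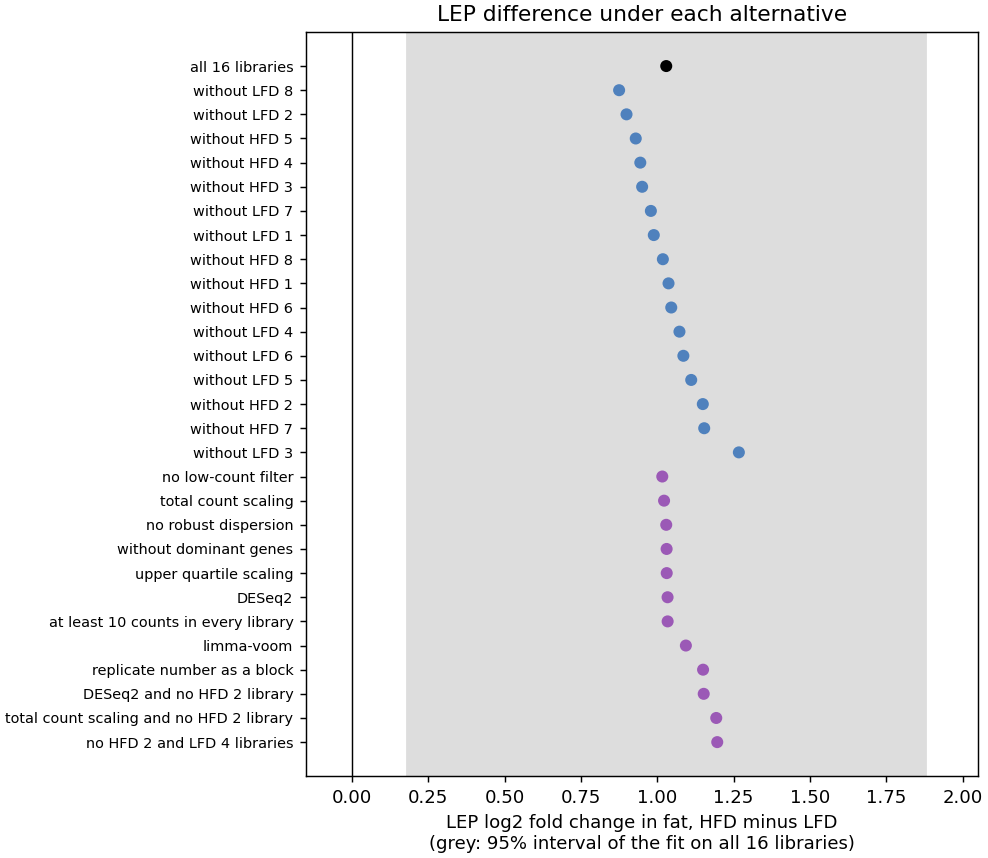
Fitted log2 fold change of LEP in fat under each alternative, with 0 marked and the 95% interval of the fit on all 16 libraries (0.18 to 1.88) in grey. Every alternative lies between 0.88 and 1.27, to the right of 0.

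LEP varied more between pigs of a group than most genes. The highest fat library had 15.4 times the LEP of the lowest, with a ratio of 3.80 within HFD and 10.7 within LFD. The order of the groups in this ratio depended on scaling: per 1000000 of all counts, where HFD 2 has 31.7, the ratio was 12.3 within HFD and 8.97 within LFD. The SD of log2 CPM within groups was 0.981, against a median of 0.410 over all genes tested, and 5.54% of genes varied more. Among the 8025 genes with a mean of at least 10 CPM, where counting error is small, the median SD was 0.343 and 149 genes (1.86%) varied more than LEP. The biological coefficient of variation of LEP was 0.549, against 0.317 for all genes together.

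In liver, all 16 libraries together held 25 counts of LEP among 398150058. HFD 2 held 11, HFD 7 held 8, HFD 1 and LFD 4 held 3 each, and the other 12 libraries held 0. A count of 0 allows up to 3, a level between 0.0968 and 0.194 CPM in these 12 libraries. The 2 sequencing runs gave 1 and 10 counts in HFD 2, 6 and 2 in HFD 7, and 0 and 3 in both HFD 1 and LFD 4. The pooled level was 0.0621 CPM (95% exact Poisson interval 0.0402 to 0.0916, counting error only). HFD livers had 22 counts, or 0.104 CPM (0.0653 to 0.158), and LFD livers 3, or 0.0157 CPM (0.00323 to 0.0458). These intervals too hold counting error only and not the spread between pigs. Most HFD counts came from HFD 2 and HFD 7.

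LEP did not pass the filter on low counts in liver, so no fold change is given as a result there. The mean HFD level was 0.0863 CPM above the mean LFD level, and 0.0302 CPM above it without liver HFD 2. A fit across all genes with no filter gave LEP an unadjusted p of 0.0496 and an adjusted p of 0.710 with edgeR. The unadjusted p was 0.129 with DESeq2 and 0.234 with limma-voom. Liver HFD 2, with the most LEP, also had the highest ADIPOQ (16.5 CPM, against 2.44 CPM or less in the others), FABP4 (9.70 CPM, against 1.85 or less) and PLIN1 (9.79 CPM), the genes of adiponectin, a fatty acid carrier and a lipid droplet coat of fat cells. PLIN4 was highest in HFD 2 too (32.3 CPM), but CIDEC was higher in HFD 7 (13.4 CPM) and LFD 7 (13.1 CPM) than in HFD 2 (12.1 CPM). HFD 7, second in LEP, was second in ADIPOQ and ranked 5 in PLIN1. HFD 1 and LFD 4, with 3 LEP counts each, ranked 15 and 6 in ADIPOQ. LFD 3, with 0 LEP counts, ranked 3 in ADIPOQ (2.20 CPM) and 2 in PLIN1. The sum of all 10 adipocyte markers was 341 CPM in HFD 2 and 391 CPM in HFD 7, inside the range of the other livers, none of the 10 was at 0 in every liver, and their part in the LEP counts was not tested. The difference of the HFD effect between tissues was -1.38 on the log2 scale, fat minus liver (SE 1.37, unadjusted p = 0.321, adjusted p = 0.949, edgeR interaction term), where 0 of 14324 genes passed.

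LEPR, the leptin receptor, had the opposite tissue order. In fat it ranged from 0 to 0.441 CPM in HFD and from 0 to 0.414 CPM in LFD libraries, with 2 and 3 libraries at 0, and it did not pass the filter. In liver it ranged from 2.68 to 20.5 CPM in HFD pigs (median 5.45) and from 6.33 to 38.2 CPM in LFD pigs (median 11.8), with overlap. Across the tissues the ranges of LEPR did not meet. This is a description of levels within the gene, with no test.

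To see which genes went with LEP from pig to pig, Spearman's rho and Pearson's r of log2 CPM were computed between LEP and each of the other 13081 genes tested, over the 16 fat libraries. The points of such a correlation share libraries and scaling. With permutation p-values adjusted over all 13081 genes, 280 genes (2.14%) passed with a positive and 155 (1.18%) with a negative rho. The median rho was -0.01. Without HFD 2 the counts were 129 and 79, and 170 genes passed both times. With Pearson's r 79 and 47 genes passed. In all, 115 genes had a rho of at least 0.8 and 52 a rho of -0.8 or less.

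The 10 genes most like LEP, chosen for that and so given with no test, had rho between 0.90 and 0.94. They were MTFR1, a mitochondrial fission regulator (rho 0.94, r 0.91), ENSSSCG00000047442, which has no symbol here (0.94, r 0.94), PNKD (0.93, r 0.79), RPS6KL1 (0.92, r 0.75), RAB11A, a GTPase of recycling endosomes (0.92, r 0.64), MARCHF2, a ubiquitin ligase of membranes (0.92, r 0.58), UBE2D4, a ubiquitin-conjugating enzyme (0.91, r 0.86), RBBP9, a serine hydrolase (0.91, r 0.76), DCAF6 (0.91, r 0.81) and UFD1, which acts in the extraction of ubiquitin-marked proteins (0.90, r 0.61). The next gene, CRYAB, had rho 0.89. MTFR1 ran from 11.7 to 22.0 CPM in HFD and from 9.6 to 19.4 CPM in LFD libraries, a much smaller range than that of LEP. In the 16 sets that left out a library, the rho of these 10 genes stayed between 0.88 and 0.98.

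The 5 genes with the lowest rho were COL6A3, a collagen VI chain (rho -0.95, r -0.71), TNFAIP6, which binds hyaluronan (-0.93, r -0.89), ENSSSCG00000000367 (-0.92, r -0.84), PXDN, a peroxidase that crosslinks collagen IV (-0.90, r -0.69), and ABI3BP, a matrix protein (-0.90, r -0.77). The next was PLAGL1 at -0.89. COL6A3 ranged from 365 to 2226 CPM in HFD and from 463 to 1098 CPM in LFD libraries. The top value was that of HFD 2, where PXDN and ABI3BP also had their highest values. These are TMM-scaled values, which the low TMM factor of HFD 2 raises.

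The make-up of these 15 genes depended on the setting. With values centred on the group mean 1 of the 15 stayed among the 10 highest and 5 lowest, with Pearson's r or with total count scaling 3, and without HFD 2 12. It was 7 without HFD 8 and between 7 and 14 over all sets that left out a library. The direction of their rho did not turn in any of these.

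Of 134 genes in lists of leptin signalling, fat cell function and cell type markers, 118 had a row under their symbol and 108 passed the filter. Against LEP, 4 of the 108 (3.70%) passed with a positive rho and 5 (4.63%) with a negative rho, where all genes gave 2.14% and 1.18%. The lists were chosen with earlier results of these data known, so these shares and the medians of lists below are descriptions. With total count scaling 0 of the 108 passed, and without HFD 2 4 did. Without LFD 2 and LFD 8, the libraries farthest from the median of LEP, 0 passed over 14 libraries, and with values centred on the group mean 23 passed. Each p below is a permutation p adjusted over all 13081 genes, and the raw p of rho of the 9 genes that passed ran from 0.0001 to 0.00099.

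**Figure D3:**
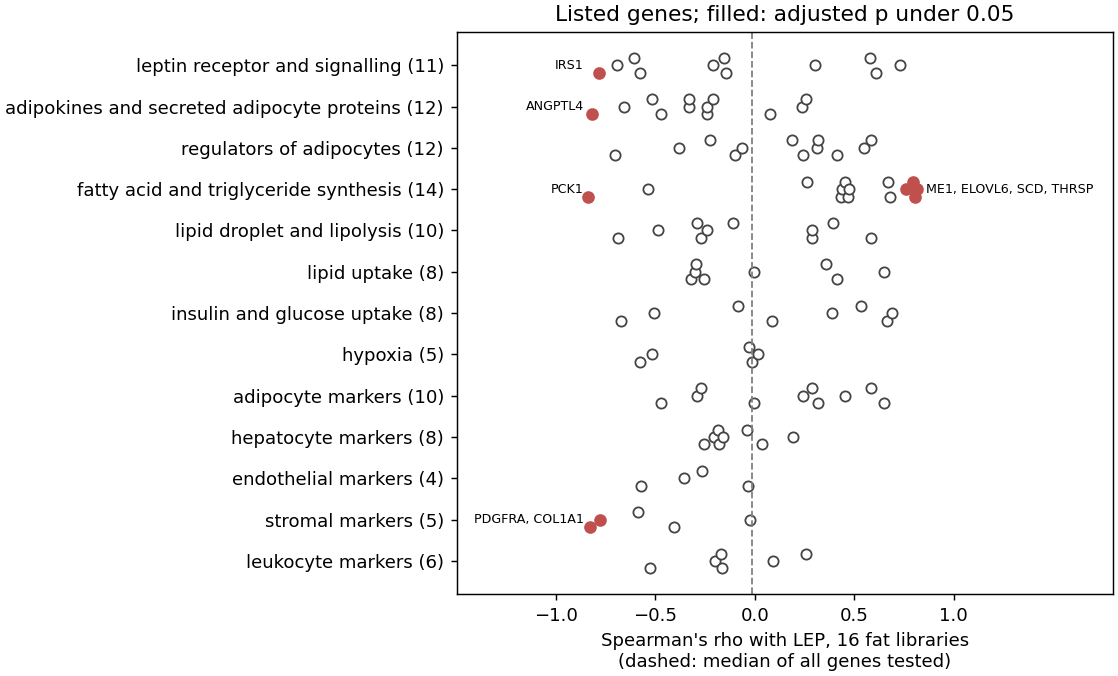
Spearman's rho with LEP over 16 fat libraries for the genes tested of each list, with the number tested in brackets. Lists with fewer than 4 genes tested (skeletal muscle, erythroid and epithelial markers) are not drawn. Filled points have an adjusted p under 0.05 and the dashed line marks the median of all genes. Filled points on the right are 4 genes of fatty acid synthesis, and those on the left are PCK1, ANGPTL4, IRS1, PDGFRA and COL1A1.

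Of the 14 genes of fatty acid and triglyceride synthesis tested, 4 passed with a positive and 1 with a negative rho. In all, 12 of the 14 had a positive rho, and the median was 0.47 against -0.01 over all genes. SCD, the desaturase that makes oleic acid, ranged from 9600 to 41224 CPM in HFD (median 27486) and from 2450 to 38353 CPM in LFD libraries (median 25055). Its lowest library was LFD 8, which also had the least LEP, and its highest was HFD 5, which had the most. SCD had rho 0.81 with LEP (permutation test, adjusted p = 0.0269) and r 0.82 (adjusted p = 0.0441), and r was 0.76 without LFD 2 and LFD 8.

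THRSP, a nuclear protein that goes with lipogenesis, ranged from 1071 to 6833 CPM in HFD and from 820 to 6080 CPM in LFD libraries, with rho 0.82 (adjusted p = 0.0237) and r 0.77 (adjusted p = 0.0507). ELOVL6, which lengthens fatty acids, ranged from 2440 to 4797 CPM in HFD and from 1067 to 4424 CPM in LFD, with rho 0.79 (adjusted p = 0.0320) and r 0.84 (adjusted p = 0.0374). ME1, the malic enzyme that supplies NADPH, ranged from 358 to 2716 CPM in HFD and from 208 to 2039 CPM in LFD, with rho 0.76 (adjusted p = 0.0398) and r 0.76 (adjusted p = 0.0532). Without LFD 2 and LFD 8, r was 0.73 for THRSP, 0.76 for ELOVL6 and 0.67 for ME1. For all 4 genes HFD and LFD overlapped over most of their range. Within groups, their rho ran from 0.714 to 0.929 in HFD and from 0.857 to 0.905 in LFD. Without HFD 2, THRSP kept its call (adjusted p = 0.0476), while SCD (0.0514), ELOVL6 (0.0565) and ME1 (0.0578) missed the threshold.

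FASN, the fatty acid synthase and the most abundant of the list at a mean of 26289 CPM, did not pass, with rho 0.47 (adjusted p = 0.254). ACLY and DGAT2, chosen after their values were seen, had rho 0.68 and 0.67 with adjusted p-values of 0.0794 and 0.0838. PCK1, phosphoenolpyruvate carboxykinase, which acts on a path to glycerol 3-phosphate in fat and is not an enzyme of fatty acid synthesis itself, went the other way. It ranged from 12.5 to 195 CPM in HFD (median 37.4) and from 31.3 to 760 CPM in LFD libraries (median 169), with rho -0.84 (adjusted p = 0.0187), r -0.80 (adjusted p = 0.0422) and r -0.87 without LFD 2 and LFD 8. It passed without HFD 2 as well (adjusted p = 0.0312).

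Among adipokines and other secreted proteins, 9 of 12 tested had a negative rho and 1 passed. That was ANGPTL4, which inhibits lipoprotein lipase and is induced by fasting. It ranged from 90.4 to 545 CPM in HFD (median 381) and from 198 to 622 CPM in LFD libraries (median 489), with rho -0.82 (adjusted p = 0.0187), r -0.71 (adjusted p = 0.0896) and r -0.69 without LFD 2 and LFD 8. Its call held without HFD 2 (adjusted p = 0.0335). ADIPOQ, the gene of adiponectin and the most abundant adipokine at a mean of 4901 CPM, had rho -0.47 (adjusted p = 0.256), AGT, the angiotensin precursor, -0.33, and CFD, adipsin, -0.21.

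In the list of the leptin receptor and its signalling, 4 of 11 genes tested had a positive and 7 a negative rho, and 1 passed. IRS1, the insulin receptor substrate, ranged from 8.7 to 29.3 CPM in HFD and from 12.7 to 25.9 CPM in LFD libraries, with rho -0.79 (adjusted p = 0.0320) and r -0.72 (adjusted p = 0.0721, r -0.70 without LFD 2 and LFD 8), and its call was lost without HFD 2 (adjusted p = 0.0565). LEPROT, a transcript of the LEPR locus, had rho 0.73 (adjusted p = 0.0544), IRS2 -0.69 (0.0730), STAT3 -0.58 (0.139) and PTPN11 0.30 (0.513). JAK2, PTPN1 and SOCS3, named for their roles above and after their values were seen, had rho -0.16, -0.14 and -0.61 (adjusted p = 0.121 for SOCS3). None of these reached the threshold.

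Of the regulators of adipocytes, 0 of 12 passed. Over all genes 2.14% passed with a positive and 1.18% with a negative rho, so a count of 0 in lists this small does not set them apart. SREBF1, which drives lipogenic genes, had rho 0.58 (adjusted p = 0.141), PPARG, the master regulator of fat cells, 0.32 (0.488), CEBPA 0.24 (0.616) and CEBPB -0.38 (0.379). Genes of insulin action and glucose uptake had 0 passing of 8, with HK2, a hexokinase, at 0.69 (0.0724), the glucose transporter SLC2A4 at 0.66 (0.0863), PDE3B at 0.39 and AKT2 at 0.09. Of 8 genes of lipid uptake 0 passed, among them LPL, lipoprotein lipase, at 0.65 (0.0938), ACSL1 at 0.41, FABP5 at -0.32 and FABP4 at -0.01. Of 10 genes of lipid droplets and lipolysis 0 passed, and the abundant PLIN1, PLIN4, LIPE and PNPLA2 had rho 0.29, -0.29, -0.27 and -0.485. Of 5 hypoxia genes 0 passed, with HIF1A at 0.01, ADM at -0.03, VEGFA at -0.51 and NDRG1 at -0.58.

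**Figure D4:**
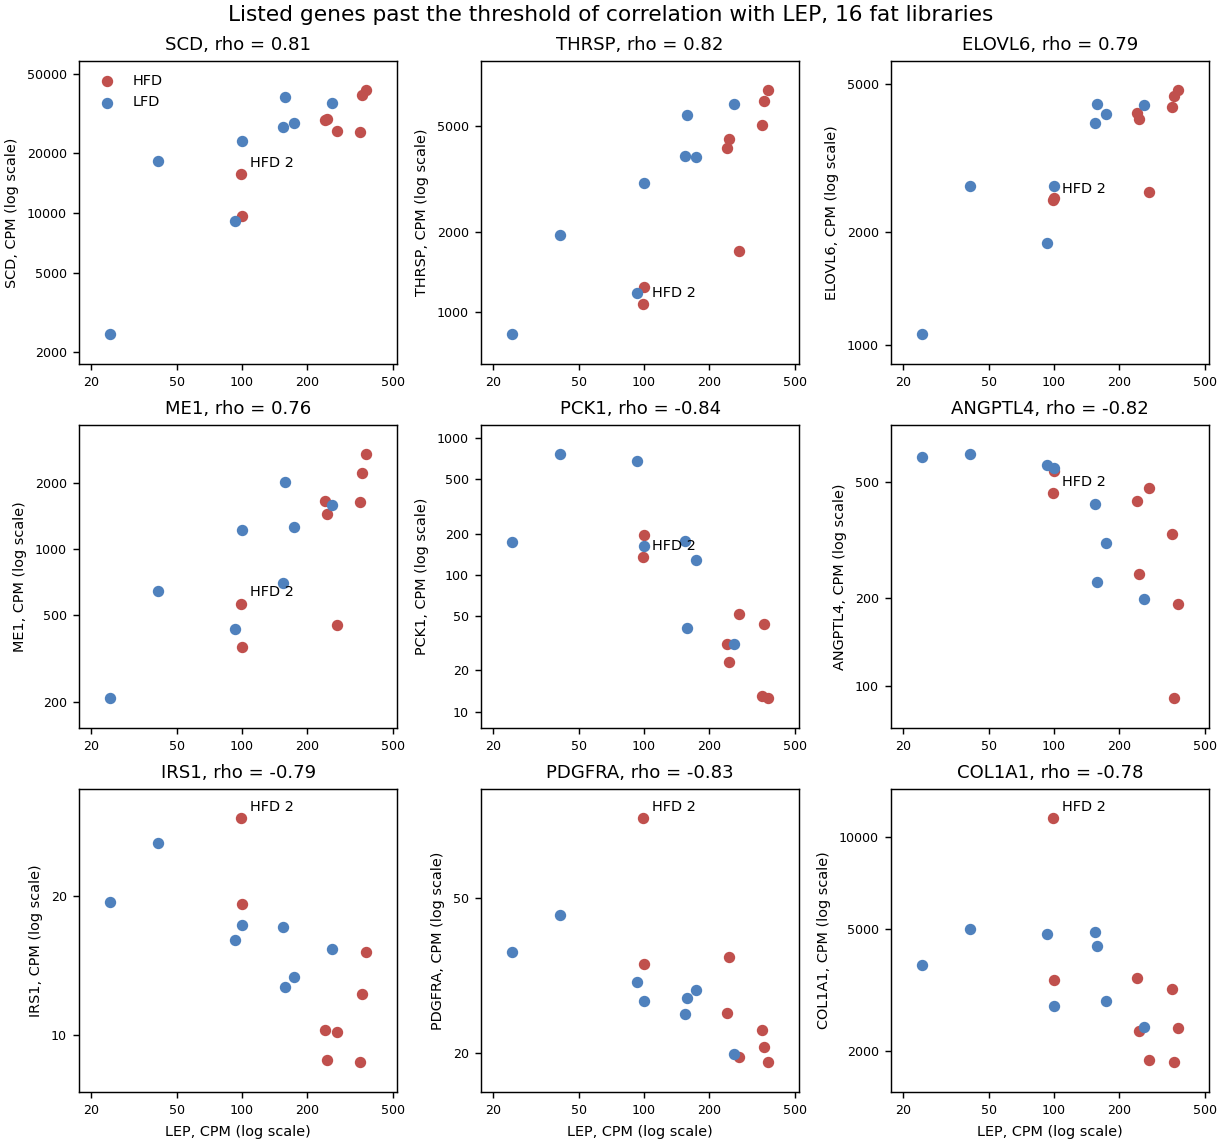
CPM of the 9 listed genes that passed against CPM of LEP in 16 fat libraries, both on log axes, with HFD libraries in red, LFD libraries in blue and HFD 2 named. The upper row and ME1 go up with LEP from LFD 8 at 24.5 CPM to HFD 5 at 378 CPM, and the other 5 go down. HFD 2 is highest in IRS1, PDGFRA and COL1A1 in TMM-scaled CPM, which its low TMM factor raises.

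Of the 5 markers of stromal cells, the cells of connective tissue, 2 passed with a negative rho. All 5 had a negative rho, with a median of -0.59. PDGFRA, a receptor of fibroblasts and fat cell precursors, ranged from 18.9 to 80.0 CPM in HFD and from 19.9 to 45.1 CPM in LFD libraries, with rho -0.83 (adjusted p = 0.0216), r -0.64 (adjusted p = 0.144) and r -0.66 without LFD 2 and LFD 8. It passed without HFD 2 (adjusted p = 0.0353). COL1A1, a collagen I chain, ranged from 1830 to 11542.5 CPM in HFD and from 2399 to 5016 CPM in LFD, with rho -0.78 (adjusted p = 0.0327) and r -0.55 (adjusted p = 0.241, r -0.66 without LFD 2 and LFD 8), and lost its call without HFD 2 (adjusted p = 0.0584). COL3A1, DCN and LUM had rho -0.59, -0.41 and -0.02.

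The summed level of the stromal markers ran from 11239 to 24751 CPM in HFD, where all but HFD 2 had at most 15268, and from 12990 to 21467 CPM in LFD libraries. The low TMM factor of HFD 2 raises its value. The summed level of stromal markers in HFD 2 per all its counts was not examined. The stromal sum had rho -0.72 with LEP (permutation test, adjusted p = 0.0238 over 12 library measures and marker sums) but r -0.53 (adjusted p = 0.418), and r was -0.65 without LFD 2 and LFD 8. Within groups rho was -0.67 in HFD and -0.17 in LFD. The sum of the 10 adipocyte markers had rho 0.41 (adjusted p = 0.452), and of these markers 0 passed, 6 with positive and 4 with negative rho. The part of either cell type in the LEP values was not tested. The other 10 measures, which include total counts (rho 0.05), the TMM factor (-0.36), the share of the 10 most counted genes (0.34) and genes detected (-0.19), did not pass.

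Between HFD and LFD fat, 0 of the 108 listed genes passed with edgeR and 15 (13.9%) had an unadjusted p under 0.05, against 870 of 13082 (6.65%) over all genes, while DESeq2 called 1, RBP4, and limma-voom 0. The 15 became 8 with total count scaling, 8 with the replicate number as a block, 8 without HFD 2 and LFD 4, 9 with limma-voom, 11 without HFD 2 and 21 without HFD 3, and 7 of the 15 were markers of hepatocytes. PCK1 had a log2 fold change, HFD minus LFD, of -2.10 (SE 0.700, unadjusted p = 0.00766, adjusted p = 0.542), the opposite sign to LEP. RBP4, a retinol carrier chosen after its values were seen because it had the smallest adjusted p of the lists, was at -0.86 (adjusted p = 0.255) with edgeR. ADIPOQ was at -0.35 (adjusted p = 0.774), FASN at 0.52 (0.898) and SCD at 0.25 (0.954).

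Of the 8 hepatocyte markers tested in fat, 7 had an unadjusted p under 0.05, all with higher means in HFD and none past the adjusted threshold. Without HFD 2 none of these 7 had, and APOA1, the remaining marker, did. ALB, albumin, had a log2 fold change of 2.03 with HFD 2 (adjusted p = 0.628) and 0.43 without it. The summed hepatocyte markers were 1557 CPM in HFD 2, at most 455 in the other HFD and between 160 and 286 CPM in the LFD libraries, and their rho with LEP was -0.06 (adjusted p = 0.850).

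Of 12 genes annotated within 250000 bases of LEP on the chromosome, 6 could be tested and 0 passed. Over all genes 2.14% passed with a positive and 1.18% with a negative rho, so 0 of 6 does not set these genes apart. The highest was SND1, at rho 0.62 (adjusted p = 0.112), with HILPDA, a lipid droplet protein, at -0.35 and IMPDH1 at -0.13; these 3 were chosen after their values were seen.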

How the data were processed

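Total RNA of liver and fat from Zlotnicka White female pigs was sequenced after TruSeq v2 preparation, which does not mark strand. The submitters' processing notes name FastQC, STAR, RSEM and DESeq2, and the build Sscrofa 11.1. Versions are not given in the sources used here. The authors deposited whole-number counts per gene and library without normalization. All 48 columns were used, and the 2 sequencing runs of each liver library were added. Groups came from the labels, where fat content stands under a tag for another trait. LEP and the lists were chosen with earlier results of these data known. Symbols came from a table that names 15029 of the 31908 identifiers.

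Counts were fitted in R 4.3.3 with edgeR 4.0.16 (filterByExpr, TMM, robust quasi-likelihood, Benjamini-Hochberg, threshold 0.05). Alternatives used DESeq2 1.42.0 and limma 3.58.1. Correlations used log2 CPM with a prior count of 2 and 100000 permutations in Python 3.11.15. Their p-values were adjusted over all genes tested and not over the listed genes alone as first planned. On simulated fat counts of 13007 genes the edgeR step recovered 68% of 100 genes changed 2-fold and 96.9% of 100 changed 4-fold. Of the genes it called, 5.23% had not been changed. The changed genes were drawn at random. In the fat data 5.55% of genes had a larger biological coefficient of variation than LEP, so the 68% does not describe a gene as variable as LEP. On 13081 shuffled genes the correlation step recovered 40% of 100 genes set to a correlation of 0.8 and 100% of those set to 0.95. The correlation set was Pearson's r, while the calls used Spearman's rho. Each gene was shuffled on its own, which removes what genes share across libraries, so these shares may not hold in the fat data. The text names LEP, the 10 highest and 5 lowest rho among genes with a mean of at least 1 CPM, listed genes past the threshold of either test, up to 4 with the highest mean CPM of a list, and LEPR, PPARG, CEBPA and SREBF1. The next gene after the highest and the lowest rho is given too, and further genes were chosen after their values were seen and are marked so.

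Each library is treated as a separate pig of its group, so p-values measure the spread between these libraries. No label ties libraries of the same replicate number to each other. HFD and LFD fat of the same number correlated at 0.0275 to 0.261 in their deviations. The mean was 0.138, against -0.0204 for fat of other numbers, and 2 of 8 correlated best with their own number. In liver these means were -0.00277 and 0.000555. What fat libraries of the same number may share was not tested.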

Additional observations from a re-analysis of the deposited data

Results flagged for a closer look

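Of 66 groups of 8 libraries examined for a value set apart, 16 were singled out because the gap to the nearest library, as a share of the group's whole range, exceeded Dixon's 95% critical value, where chance flags about 1 group in 20. Fat HFD 2 gave 11 of them. It had 9409976 total counts, a TMM factor of 0.319 and 80.9% of its counts in its 10 most counted genes. Among genes and marker sums it had 43.7 CPM of RAB11A (group median 87.6), 2226 CPM of COL6A3 (529), 436 CPM of PXDN (184), 268 CPM of ABI3BP (77.0), 11542.5 CPM of COL1A1 (2776), 80.0 CPM of PDGFRA (24.1), 1557 CPM of summed hepatocyte markers (248) and 24751 CPM of summed stromal markers (12813). Fat LFD 4 had a TMM factor of 0.760 and 42.2% of its counts in its 10 most counted genes. RPS6KL1 stood at 10.4 CPM in fat HFD 8 (group median 4.87). LEP itself was set apart in no fat group. In liver it stood at 0.498 CPM in HFD 2 and at 0.155 CPM in LFD 4, where most libraries of the group were at 0. LFD 4 held 3 counts and every other LFD liver 0, so any count in 1 library would have been flagged. The chance rate above does not apply to groups with so many values at 0.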

How the results depend on the processing

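LEP in fat kept a positive log2 fold change and an adjusted p over 0.05 under all 28 alternatives, between 0.88 and 1.27. With the replicate number as a replicate block it was 1.15 (edgeR, unadjusted p = 0.00318, adjusted p = 0.453) and 0 genes passed. The numbers only count samples within a tissue and group, and no label ties libraries of the same number to each other. The value with this block is therefore given only as 1 of the 28 alternatives. The difference between fat and liver (10.8 to 11.6), with a replicate block too (10.8), and the interaction (-1.53 to -1.14) kept their direction and their side of the threshold. In liver the mean difference lay between 0.0302 and 0.106 CPM, lowest without HFD 2, and no minimum of 10 counts could be applied there.

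The count of genes past the threshold in fat, 0 with edgeR, was 49 with DESeq2, 1 with limma-voom, and, in alternatives chosen after seeing the data, 85 with DESeq2 without HFD 2, 2 with total count scaling without HFD 2 and 1 without HFD 2 and LFD 4. Leaving out each library gave 0 to 2, with 2 without LFD 3 and 1 without HFD 2. The number of genes with a rho of at least 0.8 in size, 167, was 69 with Pearson's r, 56 with total count scaling, 69 and 70 with prior counts of 0.5 and 5 (Pearson), 313 with centred values and 128 to 439 when each library was left out, 252 without LFD 6 and 439 without HFD 8. The 9 listed genes past the threshold became 0 without LFD 2 and LFD 8, 4 without HFD 2, 0 with total count scaling, 23 with centred values and 1 without HFD 2 and LFD 4. RBP4 passed with DESeq2 (adjusted p = 0.00785), with DESeq2 without HFD 2 (2.17e-04) and with total count scaling without HFD 2 (0.0454). The rho of these named genes turned sign: LIPE 0.035 and ADM 0.0029 with total count scaling; FABP4 0.16, AKT2 -0.033, ADM 0.17 and LUM 0.077 without LFD 2 and LFD 8; FABP4 0.14, AKT2 -0.14, HIF1A -0.041, APOA1 -0.0059 and LUM 0.26 with centred values. The cause of these differences was not tested. With 25 LEP counts in all livers, depth limits what can be said of liver, and in fat 80.9% of the 9409976 counts of HFD 2 lie in 10 genes.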
